A study of Mus musculus with 4 samples.

Results

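This account covers 10 genes: the simple keratins Krt7, Krt8, Krt18 and Krt19, and 6 genes known for their part in secretory gland cells, Bhlha15, Elf5, Kcnn4, Chrm3, Slc12a2 and Xbp1. They were found in the deposited table by gene symbol, and all 10 were present among the 17037 genes kept. The study measured lesional facial skin of mice that carry FADS, a facial dermatitis that follows loss of Ikk2 (the kinase encoded by Ikbkb) in cells with a Cre transgene, and that also lack Postn, the gene of the matrix protein periostin. Each library comes from a facial skin, and all 4 belong to 1 group: strain C57BL/6, 28 days of age, genotype Nectin-cre(+);Ikk2FL/FL;Postn-/-, with the Cre promoter named as the labels spell it. No control genotype or healthy skin was analysed here, so values are compared between genes and between libraries, and no effect of FADS or of Postn is shown. The labels do not say whether the 4 skins came from 4 animals, so a p-value here speaks of the spread over 4 samples, part of which may be technical. The sample codes of libraries 1 and 2 share their first part, as do those of libraries 3 and 4. Libraries 2 and 4 carry the letter R at the end of the code (R libraries) and libraries 1 and 3 the letter L (L libraries), with no meaning given for the letters.

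Keratins form filaments from a type I and a type II chain. Krt8 (type II) and Krt18 (type I) are the first pair made by simple, one-layered epithelia such as the secretory cells and ducts of glands, and in skin they also mark Merkel cells. Krt7 (type II) and Krt19 (type I) are further simple keratins; in mouse skin Krt19 is known from the hair follicle bulge as well. Among the regulators, Xbp1 encodes a transcription factor that expands the secretory apparatus when the endoplasmic reticulum is loaded, and Bhlha15 (also called Mist1) encodes a factor that shapes serous secretory cells and is a known target of Xbp1 in mouse. Elf5 encodes an ETS factor of gland and keratinocyte differentiation. Chrm3 encodes the muscarinic receptor that triggers fluid secretion, Kcnn4 a calcium-activated potassium channel, and Slc12a2 the sodium, potassium and chloride cotransporter that loads secretory cells with chloride.

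Cap analysis of gene expression (CAGE) counts tags read from capped RNA 5′ ends, so the tag number does not depend on transcript length and levels may be set against each other between genes. Values are in CPM, tags scaled to a common library total, over all entries of the table, which summed to between 17630119 and 18823630 tags a library; 1 tag was worth 0.0531 to 0.0567 CPM. Intervals cover counting error only. Krt5 and Krt14, which define the epidermal basal layer, stood at 488 ± 32.8 and 736 ± 177 CPM (SD, n = 4), so epidermal markers were present. The skin was measured whole, so more cells of a type and more RNA per cell cannot be told apart. Transcripts of secreted gland proteins differed between these libraries by orders of magnitude, and their values stand beside the results further on.

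The 10 genes held 23 start clusters, none of which was listed under a second gene. Krt8, Krt18, Krt19, Bhlha15, Kcnn4 and Chrm3 had a single cluster, as did 49.3% of all kept genes; Krt7 had 2, Elf5 had 3, and Slc12a2 and Xbp1 had 6 each. RefSeq promoter windows on GRCm38.p6 matched 8 of the 10 genes. For sequences, Bhlha15, Krt18 and Kcnn4 were taken because their starts differed most between libraries, and Xbp1 because a minor start of a steady gene did so. Krt7 was added for its different order over the libraries, though it was not steady, with a log2 range of 0.99. The sequences around these 5 start clusters are shown. Each runs 5′ to 3′ on the plus strand, with the 70 bases before the cluster in lower case and the first bases of the cluster, at most 25, in capitals. Cluster starts are uncertain by 1 bp.
Bhlha15, chr5:144190221-144190315: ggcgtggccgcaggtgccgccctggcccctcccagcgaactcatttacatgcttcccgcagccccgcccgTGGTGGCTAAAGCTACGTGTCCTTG
Krt18, chr15:102028135-102028209: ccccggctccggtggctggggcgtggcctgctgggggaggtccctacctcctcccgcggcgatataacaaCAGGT
Xbp1 upstream start, chr11:5520582-5520656: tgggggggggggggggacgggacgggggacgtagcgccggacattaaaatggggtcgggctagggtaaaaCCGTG
Krt7 main start, chr15:101412250-101412344: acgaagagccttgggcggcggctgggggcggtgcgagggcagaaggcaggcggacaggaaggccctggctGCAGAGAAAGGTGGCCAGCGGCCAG
Kcnn4, chr7:24370189-24370283: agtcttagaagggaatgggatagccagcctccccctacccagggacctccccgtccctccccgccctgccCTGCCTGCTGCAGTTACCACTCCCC

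All 5 stretches were rich in G and C, at 66.3% to 71.6% of bases. The 300-base windows that hold these starts were searched on both strands for 6 motifs. GGGCGG, the letters of the GC box, occurred 3 times for Bhlha15, 4 times for Krt7 and 1 time for Kcnn4, and 35.7% of all 32851 windows hold it. None of the 5 windows held TATAAA, the core promoter box, found in 13.6% of all windows, or the letters CCAAT, found in 37.4%. None held TGACGT, found in 7.51% of all windows, nor the E-box forms CAGCTG, found in 16.3%, and CATATG, found in 3.91%. These counts describe letters in the windows only.

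Krt8 and Krt18, the primary simple keratin pair, were both highest in library 2, next in library 4 and lowest in library 3. Krt8 was started from chromosome 15, 102004307 to 102004348 on the minus strand (ENSMUSG00000049382.10), in the untranslated part of the first exon, 134 bp past its annotated start. It stood at 5.89, 15.1, 5.05 and 10.03 CPM in libraries 1 to 4 (9.03 ± 4.62, SD, n = 4). Krt18 lies on the facing strand, 23857 bp away, with its cluster from 102028205 to 102028248 (ENSMUSG00000023043.7), 25 bp past the annotated start. It stood at 4.73, 25.98, 2.67 and 10.4 CPM (10.9 ± 10.5, SD, n = 4). Both R libraries thus lay above both L libraries for each gene. The span was wider for Krt18, whose level in library 2 was 9.74 times that in library 3, than for Krt8, with 2.999 times. Without library 2 the log2 range of Krt18 was 1.63 and that of Krt8 was 0.86.

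Because the 2 chains assemble together, their ratio was followed within each library. Krt8 over Krt18 was 1.24, 0.583, 1.88 and 0.963 in libraries 1 to 4. Krt8 tags outnumbered Krt18 tags in the L libraries, and Krt18 tags outnumbered Krt8 tags in the R libraries. In libraries 1 and 4 the counting intervals of the 2 genes overlapped, so the direction there is not resolved. In library 4 the tags were 180 for Krt8 and 187 for Krt18. The mean log2 ratio of 0.10 ± 0.71 (SD, n = 4) had no common direction (exact two-sided sign-flip test, p = 0.75), and it was -0.17 without library 3. Against the epidermal basal keratins both were rare: Krt8 stood at 0.0169 of Krt5 as a geometric mean (log2 -5.89 ± 0.82, SD, n = 4), and Krt18 at 0.0106 of Krt14 (log2 -6.55 ± 1.72, SD, n = 4). The ratio of Krt18 to Krt14 was 0.00668, 0.0439, 0.00272 and 0.0161 in libraries 1 to 4, and its mean log2 value was -7.24 without library 2 and -5.90 without library 3.

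**Figure D1:**
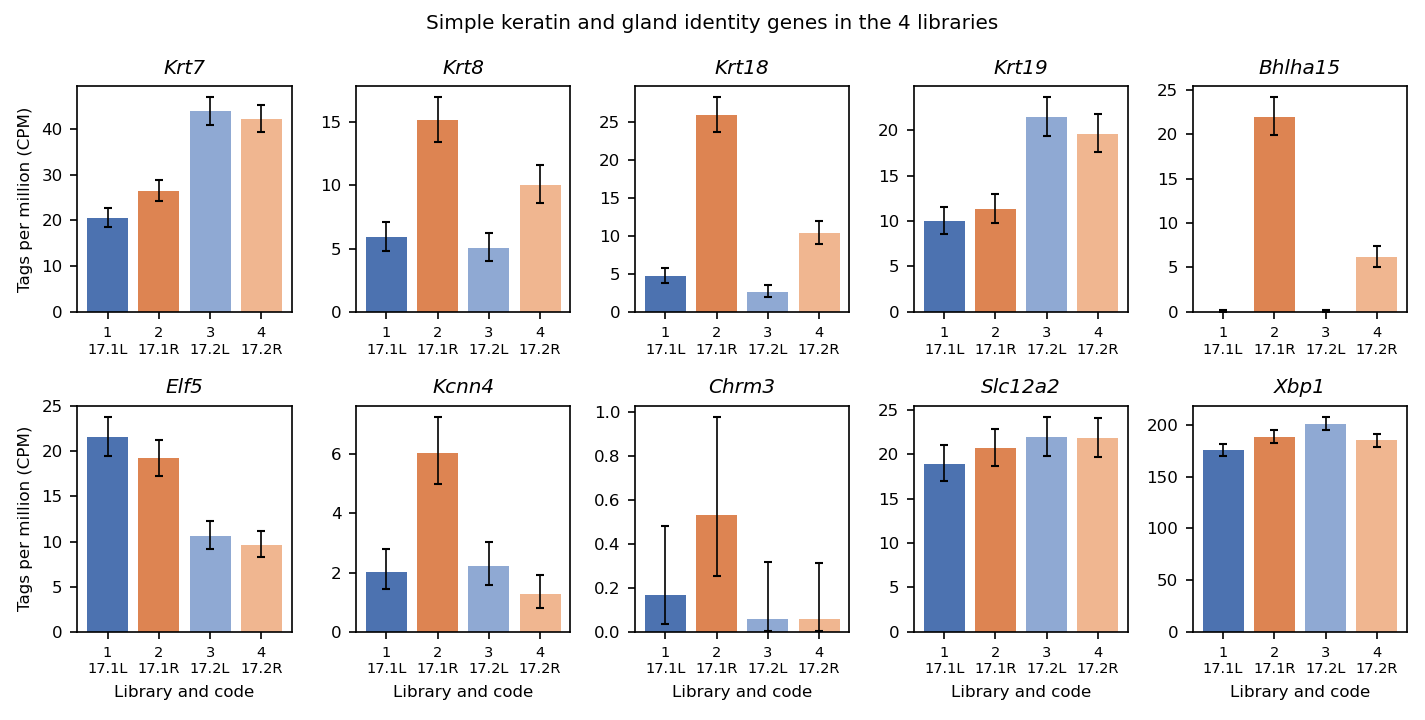
CPM of the 10 genes in each library (bars, axis from 0, own scale per gene) with exact 95% Poisson intervals of the tags. Orange bars are the libraries whose code ends in R, blue bars those ending in L; Bhlha15 had no bar in libraries 1 and 3.

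Krt7 and Krt19, the other simple keratins, followed a different order: both were higher in libraries 3 and 4 than in libraries 1 and 2. Krt7 stood at 20.5, 26.5, 43.8 and 42.2 CPM (33.3 ± 11.5, SD, n = 4), which made it the most abundant of the 4 simple keratins, at rank 5799 of all kept genes. Krt19 stood at 10.01, 11.3, 21.4 and 19.6 CPM (15.6 ± 5.77, SD, n = 4). The highest and lowest libraries differed 2.14-fold for Krt7 and 2.14-fold for Krt19. Without library 1 the log2 range of Krt7 was 0.56. Krt7 used 1 start for 99.5% ± 0.28 (SD, n = 4) of its tags, on the plus strand of chromosome 15 (101412320 to 101412431, ENSMUSG00000023039.17), a broad cluster that spans the annotated start of the coding transcript; a second cluster upstream held 10 tags in all. The single Krt19 cluster was sharp, 13 bp wide, on the minus strand of chromosome 11 (100145919 to 100145931, ENSMUSG00000020911.14), in the untranslated part of the first exon and 189 bp past the annotated start.

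Krt7 exceeded Krt8 in 4 of 4 libraries, by 3.85-fold as a geometric mean (log2 1.95 ± 0.95, SD, n = 4). The exact two-sided sign-flip test gave p = 0.125, the smallest it can reach with 4 libraries, from 2 of 16 sign patterns. Krt19 over Krt18 was 2.11, 0.436, 7.97 and 1.88, so Krt18 led in library 2 alone; the mean log2 ratio of 0.95 ± 1.71 did not hold up against this spread (exact two-sided sign-flip test, p = 0.5). It was 1.66 without library 2 and 0.26 without library 3. Krt7 stood at 0.0651 of Krt5 and Krt19 at 0.0205 of Krt14, lower in 4 of 4 libraries. Of 11 pairs compared, 9 had 1 direction in all 4 libraries, and none could pass (exact test, Benjamini-Hochberg adjusted p = 0.153 for these 9). Krt8 over Krt20 was also planned; Krt20 was not analysed here.

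Bhlha15, the serous secretory cell factor, had the widest span of the 10. It held 0, 414, 0 and 111 tags in libraries 1 to 4, or 0, 22.0, 0 and 6.19 CPM, all in 1 cluster on the plus strand of chromosome 5 (144190291 to 144190329, ENSMUSG00000052271.7), 5 bp past the annotated start in the 5′ untranslated exon. It was thus found in both R libraries and in neither L library. With a floor of 3 tags per library, which is 0.165 CPM in library 1 and 0.170 CPM in library 3, library 2 was at least 133-fold higher than library 1 and at least 129-fold higher than library 3. Library 4 was at least 37.5-fold higher than library 1 and at least 36.4-fold higher than library 3.

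Xbp1 was the most abundant and among the steadiest of the 10, at 176, 188, 201 and 185 CPM (188 ± 10.6, SD, n = 4) and rank 729 (ENSMUSG00000020484.19). Its sum hides starts that behaved differently. The main start, a cluster 182 bp wide on the plus strand of chromosome 11 (5520902 to 5521083) that overlaps the first exon of the coding transcript across its 5′ untranslated and coding parts, took 98.9% ± 0.93 (SD, n = 4) of the tags and ranged over 0.18 on the log2 scale. A sharp start upstream, from 5520652 to 5520656, lies 3 bp before the annotated start of that transcript. This upstream start held 2, 71, 6 and 25 tags, or 0.110, 3.77, 0.340 and 1.39 CPM. Its share of Xbp1 tags was 0.0626% (95% Wilson interval 0.0172 to 0.228), 2.001% (1.59 to 2.52), 0.169% (0.0775 to 0.368) and 0.752% (0.510 to 1.11). The R libraries lay above the L libraries with no overlap of these counting intervals, the same order of groups as for Bhlha15, Krt8 and Krt18. These intervals do not measure the spread between samples, and the L libraries held 2 and 6 tags. How many other minor clusters had this order was not counted here. When each named cluster was tested on its own for spread between libraries, an alternative added after the data were seen, 128 of 21876 clusters passed (0.585%); the upstream Xbp1 start ranged over 2.18 (log2) and did not pass (limma adjusted p = 0.251). Bhlha15 passed in that test (limma adjusted p = 0.02).

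**Figure D2:**
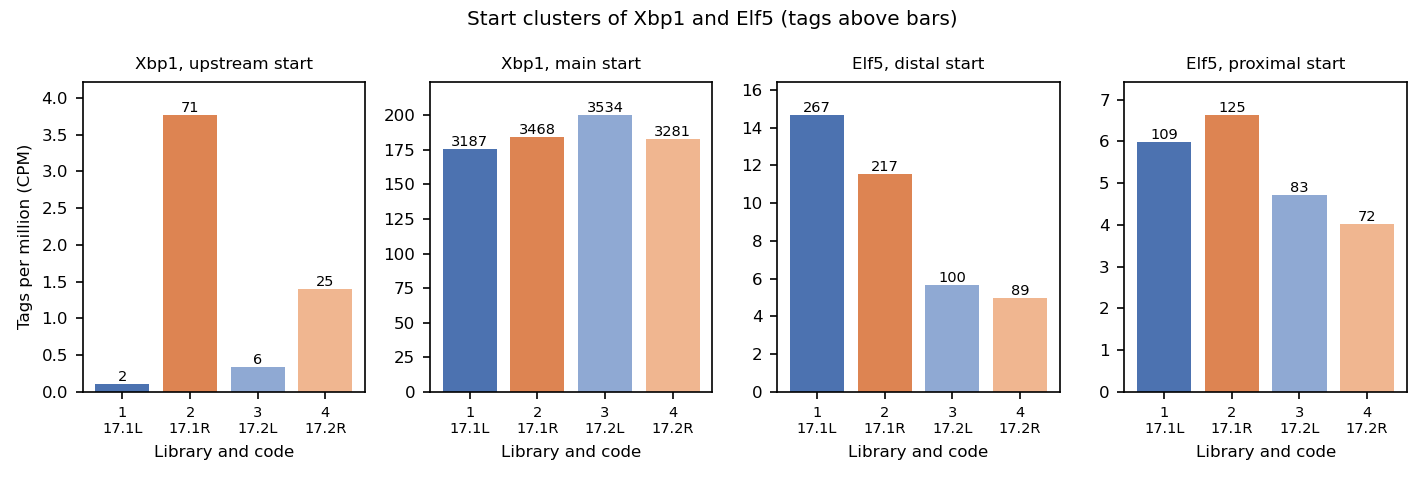
CPM of the upstream and main start clusters of Xbp1 and of the distal and proximal clusters of Elf5 in each library (bars, axis from 0, own scale per panel), with the tags above each bar. The upstream Xbp1 start had 71 and 25 tags in the R libraries (orange) and 2 and 6 in the L libraries (blue), while the main start held 3187 to 3534 tags.

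Elf5, the ETS factor, ran opposite to Krt7 and Krt19: it was higher in libraries 1 and 2 than in libraries 3 and 4. It stood at 21.6, 19.2, 10.7 and 9.64 CPM (15.3 ± 6.02, SD, n = 4; ENSMUSG00000027186.15). The gene used 3 starts on chromosome 2, plus strand. The distal one, from 103411675 to 103411832, spans the annotated start of a transcript with a retained intron, also overlaps an annotated 5′ untranslated exon of another Elf5 transcript, and stood at 14.7, 11.5, 5.67 and 4.96 CPM. The proximal one, from 103424052 to 103424134, begins 12377 bp downstream, spans the annotated start of a coding transcript and stood at 6.00, 6.64, 4.71 and 4.01 CPM. A minor cluster between them, from 103412086 to 103412097, held 54 tags in all.

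The distal start had the most tags in every library. In libraries 3 and 4 its counting interval overlapped that of the proximal start, so the lead there is not resolved. The lead was largest in library 1, where Elf5 was highest, but distal tags are themselves most of the Elf5 sum. Its share of Elf5 tags was 67.9% (95% Wilson interval 63.2 to 72.4), 59.9% (54.8 to 64.9), 53.2% (46.1 to 60.2) and 51.4% (44.0 to 58.8) in libraries 1 to 4. The ratio of distal to proximal tags was 2.44, 1.73, 1.20 and 1.23. The share ranged over 16.5 percentage points. It was set against the most used cluster of 7221 genes with at least 2 clusters and at least 100 tags in every library. The median range there was 1.82 points, and 99.3% of these genes had a smaller range than Elf5. Their median share was higher than the Elf5 share in any library. The genes were not matched to Elf5 in share or tag number. The rank therefore does not show how unusual the Elf5 range is for a gene of its share and depth. The share of the main Xbp1 start ranged over 2.07 points and that of the main Krt7 start over 0.672. Against Ehf, an ETS factor of the same subfamily, Elf5 stood at 0.492, 0.383, 0.179 and 0.209 in libraries 1 to 4, lower in 4 of 4 (exact two-sided sign-flip test, p = 0.125).

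The genes of fluid secretion were of unequal level. Slc12a2, the chloride-loading cotransporter, stood at 18.9, 20.7, 22.0 and 21.9 CPM (20.8 ± 1.41, SD, n = 4; ENSMUSG00000024597.11), with overlapping counting intervals in all libraries. Its main cluster, on the plus strand of chromosome 18 (57878533 to 57878637), lies 41 bp before the annotated start and took 92.0% ± 2.48 (SD, n = 4) of the tags; the 5 others held 10 to 51 tags each in all. Kcnn4, the potassium channel, stood at 2.04, 6.06, 2.21 and 1.28 CPM (2.90 ± 2.14, SD, n = 4), from 1 cluster on chromosome 7, 24370259 to 24370329 on the plus strand, that spans the annotated start of a coding transcript (ENSMUSG00000054342.8). It was highest in library 2, as Bhlha15 was, but lowest in library 4; without library 2 its log2 range was 0.49. Chrm3, the muscarinic receptor, held 3, 10, 1 and 1 tags at chromosome 13, 10360831 to 10360841 on the minus strand (ENSMUSG00000046159.16), so it was at or under the floor of 3 tags in 3 libraries and its order is not resolved at this depth. Slc12a2 exceeded Chrm3 in 4 of 4 libraries, and so did Kcnn4.

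**Figure D3:**
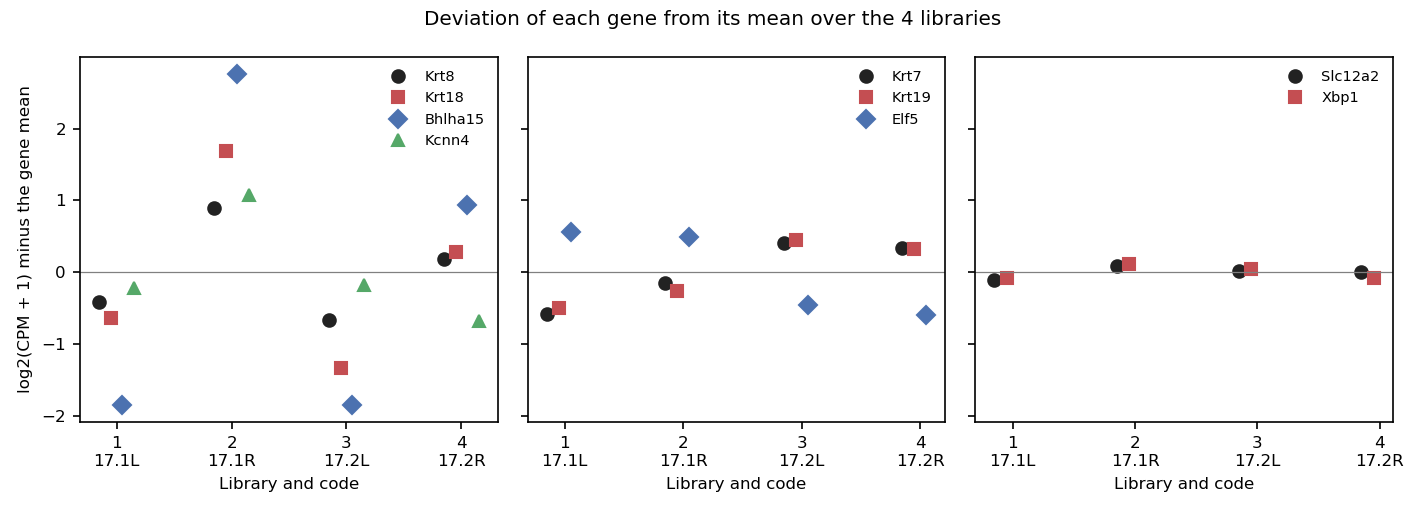
Deviation of the 9 genes tested from their own means over the 4 libraries, on the log2(CPM + 1) scale after TMM scaling; points are libraries. Krt8, Krt18 and Bhlha15 lie above 0 in both R libraries and below it in both L libraries, Krt7 and Krt19 lie above 0 in libraries 3 and 4, Elf5 in libraries 1 and 2, and Slc12a2 and Xbp1 stay near 0.

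The spread of each gene over the libraries was then set against that of all genes. Values were log2(CPM + 1) after TMM scaling, a correction for library composition, and 14732 genes with at least 1 CPM on average were tested in limma for a variance above that of genes of their level. Of 9 members tested (Chrm3 was too low), 0 were called, against 56 of all genes (0.38%). At an unadjusted p under 0.05 stood 7 of the 9, against 6.27% of all genes. The largest ranges were 4.62 for Bhlha15 (limma adjusted p = 0.0839), 3.02 for Krt18 (0.163), 1.75 for Kcnn4 (0.63), 1.56 for Krt8 (0.488) and 1.16 for Elf5 (0.455). Krt7 and Krt19 ranged over 0.99 and 0.96 (limma adjusted p = 0.479 and 0.652), and Slc12a2 and Xbp1 over 0.20 and 0.19 (both 0.993). A range of at least 1 was reached by 5 of the 9, against 4.05% of all genes, and the median range was 1.16, against 0.28 for all genes tested. Among genes near the level of each member, the median range was between 0.20 and 0.47. The members were chosen with earlier results of these data known, so no comparison with all genes here is independent evidence. Bhlha15 passed without library 3 (limma adjusted p = 0.0413) and without TMM scaling (0.0332); over all limma alternatives on gene sums its adjusted p lay between 0.0332 and 0.283, and without library 2 its range was 2.82. By edgeR on recovered tags 0 members were called (0.238% of all genes) and 7 had an unadjusted p under 0.05; DESeq2 marked Krt7, Krt8, Krt18, Bhlha15 and Elf5 as more dispersed than its trend, as it did 3.48% of all genes.

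**Figure D4:**
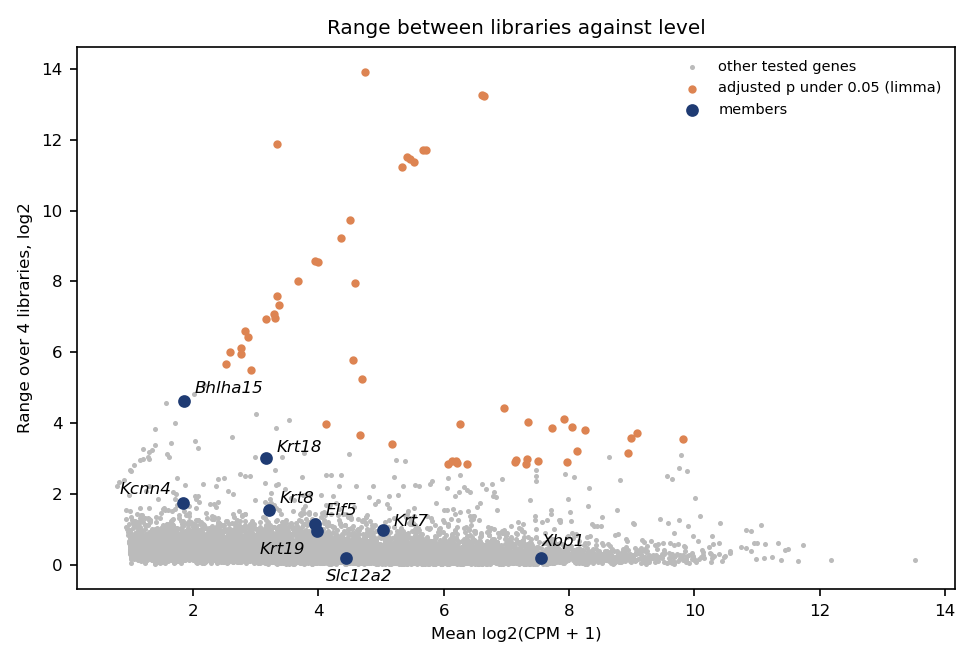
Range over the 4 libraries (highest minus lowest log2(CPM + 1), TMM scaled) against mean level for 14732 genes; grey points did not pass, orange points are the 56 genes with a limma adjusted p under 0.05, and dark points are the 9 members tested. Bhlha15 and Krt18 stand highest among the members, and Slc12a2 and Xbp1 lie within the bulk of genes.

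By the letter of the sample code, 3 of 9 members (Krt8, Krt18 and Bhlha15) had both R libraries above both L libraries, against 12.2% of all genes, and 0 had them below (10.2%). By the first part of the code, 2 of 9 (Krt7 and Krt19) had libraries 3 and 4 above libraries 1 and 2, against 26.3%, and 1 (Elf5) had them below, against 28.6%. The counts by the first part lie near those of all genes. Because the members were chosen with earlier results of these data known, the count of R above L is no independent evidence. Without TMM scaling the same members kept these orders and Slc12a2 joined Krt7 and Krt19, while the background shares moved to 6.08% for R above L, 13.8% for R below L, 45.6% for libraries 3 and 4 above 1 and 2 and 11.5% for libraries 3 and 4 below 1 and 2. With 2 libraries against 2, no exact test of such an order can pass.

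The genes most like the widest-ranging members were sought by the root mean square difference of their mean-centred log2 values over the 4 libraries, among 12070 genes of at least 5 CPM. Nearest to Bhlha15 were Esp4, an exocrine-gland secreted peptide gene at 0, 25.2, 0 and 8.75 CPM (difference 0.18), Gm12886 (0.28) and Scgb2b1, a secretoglobin gene (0.31); no other gene lay within 0.5. This distance depends on level where a gene is near 0 in some libraries, so more abundant genes with R above L can lie further away. Pip, at 0.605, 2251, 0 and 700 CPM, is an example. Esp and Scgb genes belong to families of similar sequence, so their tags may be split or shared. Nearest to Krt18 were Phyh, a peroxisomal fatty acid hydroxylase gene at 59.0, 305, 70.2 and 167 CPM (0.34), Wfdc18 (0.38) and Ltf, which encodes lactoferrin (0.48). Nearest to Kcnn4 were Wfdc12 (0.10), Ggh, a gamma-glutamyl hydrolase gene (0.17), and Fos (0.22), with 137 genes within 0.5. With 4 libraries, such likeness is a description.

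Lists of related genes place these orders beside markers of cell types that could hold the members. Of the acinar secretory cell list, 15 of 17 symbols were analysed and 14 tested; after TMM scaling 7 had both R libraries above both L libraries (12.2% of all genes), without scaling 6 (6.08%), and 1, Pip, was called (limma adjusted p = 0.00282). Pip, a secreted prolactin-inducible protein gene, stood at 0.605, 2251, 0 and 700 CPM. Agr2, which encodes a protein disulfide isomerase of mucous cells, stood at 1.98, 14.9, 3.74 and 13.2 CPM, and Lpo, the lactoperoxidase gene, at 3.08, 23.4, 7.09 and 11.0 CPM. The water channel gene Aqp5 stood at 5.94, 13.1, 11.6 and 13.5 CPM. Other genes of the list did not have this order: Ano1, at 36.9, 41.9, 56.9 and 48.1 CPM, and Creb3l1, at 34.0, 47.1, 54.7 and 51.2 CPM, were highest in library 3. Vamp8 (178 ± 13.7 CPM, SD, n = 4) and Rab3d (107 ± 10.2), vesicle genes and the next most abundant of the list after Pip, did not pass (both limma adjusted p = 0.993). Rab3d and Creb3l2 were among the 7 with R above L after scaling, but ranged over only 0.22 and 0.27 (log2). The list summed to 510, 2850, 560 and 1277 CPM, and its median range was 0.73. Pip alone gave 0.605, 2251, 0 and 700 CPM of that sum, so the difference in the sum is mostly that of Pip.

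**Figure D5:**
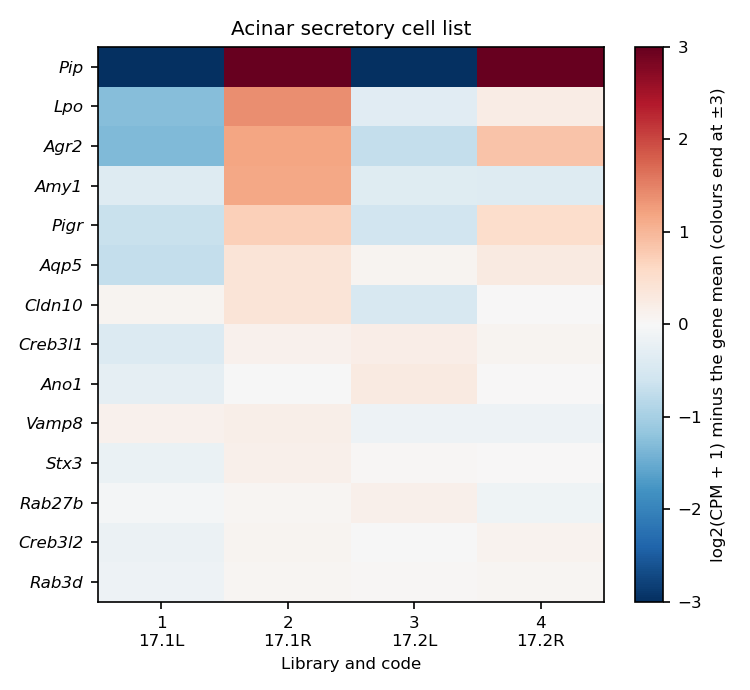
Deviation of each tested gene of the acinar secretory cell list from its mean over the 4 libraries (log2(CPM + 1), TMM scaled; red above, blue below, colours end at ±3), sorted by range. Pip, Agr2, Lpo and Pigr are red in both R libraries and blue in both L libraries, and the vesicle gene Rab3d is near white in all.

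The secreted protein genes that earlier results of these data had singled out give the gland transcripts of each library; all 5 were called, and this is no independent evidence. Mucl2 stood at 1.93, 9099, 0 and 3369 CPM, and Obp1a, an odorant-binding protein gene, at 0.55, 3142, 0 and 1327 CPM. Bpifa2, a salivary protein gene, stood at 4.18, 16004, 0.113 and 4.46 CPM, and so was high in library 2 alone. Smr3a was also high there alone, at 0.825, 3484, 0 and 0.557 CPM, and Gm1553 stood at 1.65, 8971, 0 and 4013 CPM. Krt8, Krt18, Bhlha15 and the upstream Xbp1 start shared the order of Mucl2 and Obp1a for the R and L libraries; Kcnn4 was highest in library 2 alone. The part of gland content in the members' values was not tested.

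Lists of markers of other cell types are given next. Whether their genes come from those cells alone in this skin was not tested, so the sums do not measure the cells. Of all genes tested, 0.38% were called for spread. Of the duct list, 14 of 18 symbols were analysed, 11 tested and 0 called, the sum was 397, 386, 370 and 375 CPM, and Cldn4 (170 ± 24.6 CPM), Scnn1a (80.8 ± 3.78) and Wfdc2 (29.3 ± 13.3) led; 2 of 11 had R above L, with and without scaling (12.2% and 6.08% of all genes). Cftr, Ascl3, Klk1 and Kcnj1 were not analysed here. The myoepithelial list, led by Acta2, Tagln and Myl9, summed to 154, 159, 194 and 234 CPM, with 7 tested and 0 called. Of these, 1 had R above L after scaling (12.2% of all genes) and 0 without (6.08%). Of the Merkel cell list, 8 of 12 symbols were analysed, with a sum of 12.7, 12.2, 16.2 and 12.7 CPM, 5 tested, 0 called and 0 with R above L. Chga (5.38 ± 0.95 CPM), Piezo2 (2.97 ± 0.75) and Tmem163 (1.29 ± 0.99) led it, and Krt20 and Atoh1, which define Merkel cells, were not analysed here. The part of Merkel cells in the levels of Krt8 and Krt18 was not tested.

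The bulge and outer root sheath list, the follicle site where Krt19 is known, summed to 242, 227, 305 and 315 CPM, with 9 tested and 0 called. Of these, 7 had libraries 3 and 4 above libraries 1 and 2, the order of Krt7 and Krt19, against 26.3% of all genes; without scaling 8 did, against 45.6%. This order was not particular to that list: of the myoepithelial list, 5 of 7 tested genes had it, and 6 without scaling. Cd34, a bulge stem cell marker, stood at 27.3, 28.3, 52.0 and 45.7 CPM. Sox9 (82.7 ± 7.78) and Lhx2 (43.4 ± 8.27) were the other leading genes of the bulge and outer root sheath list. The epidermal basal keratins Krt14, Krt15 and Krt5 summed to 1685, 1463, 2168 and 1736 CPM, with 0 of 3 called. The part of follicle content in the levels of Krt7 and Krt19 was not tested.

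Partners of Xbp1 did not pass the test of spread, which 0.38% of all genes passed, so this count does not set them apart. The list of its pathway and targets held 23 genes, of which 22 were tested and 0 called, with a median range of 0.25, and it summed to 2657, 2832, 3035 and 2846 CPM. Its leading genes were Hsp90b1 (646 ± 46.5 CPM, SD, n = 4), Serp1 (308 ± 46.9) and Pdia4 (277 ± 29.9), which serve protein folding and membrane protein stability in the endoplasmic reticulum. Ern1, whose product splices Xbp1 RNA, stood at 29.6 ± 2.23 CPM; tags at the 5′ end do not show that splicing. Of the 22, 6 had R above L after TMM scaling (12.2% of all genes): Edem1, Edem2, Sdf2l1, Pdia6, Creld2 and Sel1l. Without scaling 4 did (6.08% of all genes), and Pdia6 and Creld2 did not. Plasma cells also rely on Xbp1, and their defining gene Jchain held 1, 1, 4 and 3 tags; of that list 6 of 8 symbols were analysed, 5 tested and 0 called, and Sdc1 (676 ± 57.2), Prdm1 (72.7 ± 7.18) and Fkbp11 (9.41 ± 1.54), which epithelia express too, led its sum of 793, 813, 777 and 668 CPM. Of the 5 plasma cell genes tested, 2 (Derl3 and Fkbp11) had R above L, with and without scaling (12.2% and 6.08% of all genes).

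Of 10 epithelial ETS and partner factors, 0 were called (0.38% of all genes) and 0 had R above L (12.2%). Grhl1 (288 ± 33.2 CPM), Klf5 (281 ± 25.3) and Esrp2 (116 ± 5.68) led, and the sum was 1174, 1114, 1222 and 1123 CPM. Of the fluid secretion list, 17 of 19 symbols were analysed, 16 tested and 0 called, with a median range of 0.33. Itpr3, a calcium release channel gene, stood at 107 ± 14.8 CPM (SD, n = 4) and Stim1, a calcium store sensor gene, at 66.5 ± 4.70 CPM.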

How the data were processed

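CAGE libraries were made from total RNA of lesional skin with a commercial kit, per the labels' protocols. The submitters' processing notes name BWA, HISAT2 and the mm9 build, without versions; of the named entries found in GENCODE M21, 99.9% lay within 1000 bp of their gene on GRCm38, so positions are read on that build. How clusters were formed is not stated here. The authors deposited CPM for 69391 entries; all values were whole multiples of 1 tag (tolerance 0.02 tags), so whole tags were recovered. Clusters with no gene name held 9.67% to 11.0% of tags, count in the deposited CPM totals and entered no test. Tags were summed per gene. Of 17849 genes, 33 had no tag and 779 were left out because clusters given to another gene held nearly all their tags, which left 17037.

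The planned test, limma 3.58.1 on log2(CPM + 1), used TMM factors of 0.988, 0.931, 1.04 and 1.05, genes of at least 1 CPM, residual variance against a robust trended prior, an upper-tail F test (one-sided) and a Benjamini-Hochberg threshold of 0.05. edgeR 4.0.16 and DESeq2 1.42.0 on recovered tags were alternatives. Pair ratios had 0.5 tags added. The test was also run on simulated counts in which some genes were changed in 1 library. Its outcome is not reported here, and an order such as R above L was not simulated. Members, gene lists and rules were chosen with earlier results of these data known. All members are named; of each list, the 3 highest genes and those called are named (1 gene of the fluid secretion list is not reported here), and others were chosen after their values were seen. For the 3 members of widest range, the 3 nearest genes are named.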

Additional observations from a re-analysis of the deposited data

How the results depend on the processing

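The number of genes called for spread, 56 by limma, depended on the processing. It was 104 without scaling, 34 with DESeq2 size factors, 34 with a pseudocount of 5, 33 without clusters listed under several genes, 35 by edgeR, 513 marked by DESeq2 and 128 clusters when each was tested on its own. With at least 10 tags in every library limma called 0 genes, where 920 had an unadjusted p under 0.05; Bhlha15 is not tested there. Leaving out 1 library gave 10 to 111 (10 without library 4, 111 without library 3). The number of members called by limma on gene sums was 0, and 1 (Bhlha15) without scaling; leaving out 1 library gave 0 to 1. DESeq2 marked 5 members, edgeR called 0, and Bhlha15 passed when each cluster was tested alone. Without library 2 the range of Krt18 was 1.63, of Krt8 0.86 and of Kcnn4 0.49; without library 1 that of Krt7 was 0.56. The causes were not tested. The mean log2 ratio of Krt8 to Krt18 was -0.17 without library 3, and the mean level of Krt18 was 5.94 CPM against 6.99 CPM for Krt8 without library 2; the other pairs kept their sign. Elf5 over Ehf was -2.55 (log2) with the most used cluster alone, and Elf5 then stood at 9.21 CPM. No paired analysis was possible because the labels give 1 group and do not say what the codes, whose first parts and last letters recur, stand for; the orders of R and L libraries are descriptions. Depth limits Chrm3 and the minor clusters.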

Other observations

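Derl3, Foxa1 and Cldn3, named here after their values were seen, had both R libraries above both L libraries, as Bhlha15 and Krt18 did. They come from lists in which most genes did not: 2 of 5 tested plasma cell genes and 2 of 11 tested duct genes had this order. Of all genes, 12.2% had it after scaling and 6.08% without. Derl3, which encodes a component of protein degradation at the endoplasmic reticulum, stood at 0.66, 8.82, 0.284 and 3.18 CPM in libraries 1 to 4, with a range of 3.04 (log2, limma adjusted p = 0.265). Foxa1, a forkhead factor of gland epithelia, held 1, 22, 3 and 15 tags, too few for the test of spread, so it is not among the 11 tested duct genes. Cldn3, a claudin gene of simple epithelia, stood at 10.1, 15.03, 6.81 and 12.8 CPM (limma adjusted p = 0.682). Amy1, of the acinar list and also named after its values were seen, did not have this order. This amylase gene, with near-identical relatives whose tags may be shared, stood at 1.21, 5.10, 1.30 and 1.28 CPM, highest in library 2 alone, as Kcnn4 was.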
